A study of Mus musculus with 12 samples.

Results

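Heat shock proteins and their co-chaperones were followed in 3T3-L1 cells at the onset of fat cell differentiation. The genes were taken by symbol: Hspa, Hspb, Hspd1, Hspe1, Hsph1 and Hsp90 genes, the J-protein families Dnaja, Dnajb and Dnajc, Bag1 to Bag6, and the heat shock factors Hsf1 and Hsf2. A probe belonged to the set when its transcript accession was paired with one of these symbols in RefSeq, which gave 130 probes of 78 genes, of 18217 genes named on the array, among 41174 non-control probes. Of 80 protein-coding genes in RefSeq with such a symbol, 2 (Dnajb5 and Dnajb11) had no probe by this match. A gene with several probes (39 genes) was represented by the probe with the highest mean signal.

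3T3-L1 is a line of mouse embryonic fibroblasts, taken as preadipocytes, that can be induced to become fat cells. Post-confluent cells were harvested without hormones (0 h) or 6 h after a change to medium with 0.5 mM isobutylmethylxanthine, 1 µM dexamethasone and 5 µg/ml insulin. The serum also differed, 10% newborn bovine serum in growth medium and 10% fetal bovine serum in the induction medium, so effects of serum and hormones cannot be told apart. Lysates made with cycloheximide were spun through sucrose gradients, with RNA of gradient fractions 5 to 7 making up the non-polysomal pool and that of 9 to 11 the polysomal pool. The 4 groups are called np0, p0, np6 and p6 below (np for non-polysomal, p for polysomal, then the hour), with 3 arrays each, and every slide carried 1 array of each group.

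Chaperones bind unfolded protein and help it to fold. HSP70 proteins do so in cycles of ATP hydrolysis that J-proteins start and that nucleotide exchange factors, among them several BAG proteins and the HSP110 protein Hsph1, complete. HSP90 takes over late folding steps of kinases and of steroid hormone receptors such as the glucocorticoid receptor, the target of dexamethasone. The cytosol, the endoplasmic reticulum (ER) and the mitochondrion each have their own HSP70, and HSF1 is the main activator of cytosolic heat shock genes, whereas the unfolded protein response controls those of the ER.

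Values are log2 background-subtracted intensities scaled by spike-in RNAs, called log2 signal below, and a difference between groups is a difference of log2 signals. Levels of different probes cannot be set against each other, so each gene is compared with itself. A difference was called when its adjusted p from limma was below 0.05 and its size above 1, and only such a difference is described as a rise or a fall. The M-value is (p6 - np6) - (p0 - np0), and it is above 0 when p - np was larger at 6 h than at 0 h. By the paper's methods the spike-in amount was set for a fixed mass of RNA. A difference between the pools therefore compares signals relative to the spike-ins and does not give the share of a transcript's molecules in each pool. A gene called polysomal below is one whose signal was higher in the polysomal pool. The spike-in signal was lower on the 3 p6 arrays than on the others. Its offset was -0.48 to -0.21 there and 0.05 to 0.18 on the other 9 arrays, so the scaling raised all p6 values. The median M-value of all probes was 0.49 with the spike-ins and 0.06 when arrays were scaled to their 75th percentile. The medians of all probes were 0.54 (0.05 with the 75th percentile) for p6 - p0, 0.04 (-0.02) for np6 - np0, 0.15 (-0.74) for p0 - np0 and 0.68 (-0.63) for p6 - np6. Most values that change sign with the scaling are given with both.

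The 11 markers of fibroblasts and preadipocytes that the array held, among them Col1a1 and Dlk1, were well above background on every array. Of 6 markers of blood cells, macrophages, epithelium and endothelium, none was well above background on all arrays of np0, p0 or np6. The endothelial cadherin Cdh5 was so on the 3 p6 arrays and on no other, and the leukocyte gene Ptprc and the macrophage gene Adgre1 were each so on 1 p0 array. The summed linear signal of these 6 markers was 10.2 to 14.5 in np0, 9.58 to 90.02 in p0, 11.2 to 13.1 in np6 and 37.6 to 40.5 in p6, against 619311 to 1796463 for the 11 fibroblast markers over all arrays. Of the 7 adipocyte markers, 4 were well above background on all arrays. The summed signal of the 7 was 42911 to 51439 in p0 and 87757 to 96813 in p6. In the non-polysomal pool it was 20195 to 20791 in np0 and 18917 to 19431 in np6. The fibroblast sum was also higher in p6 (1768692 to 1796463) than in p0 (1137931 to 1234559), and the scaling raised all p6 values. The part of other cells in the values below was not tested.

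Of the 78 genes, 67 were well above background on all 12 arrays, 70 on every array of at least 1 group, 1 (Hspb3) on a single array and 7 on none. With spike-in scaling the polysomal pool held more rises over time than the non-polysomal pool. In p6 - p0, 26 genes rose and 4 fell, against a background of 19.2% of all tested probes up and 5% down. The counts of genes became 14 and 8 when arrays were scaled to the 75th percentile. Shares of all probes were counted with spike-in scaling only. Counts with the 75th percentile thus have no background beside them, here or below. In np6 - np0, 12 rose and 7 fell, against 8.12% and 8.11%. All 12 genes that rose in the non-polysomal pool also rose in the polysomal pool, and 14 others rose in the polysomal pool alone. In the M-value 11 genes were called above 1 and 0 below -1, against 12.1% and 1.32% of all probes. No gene was below -1 at an unadjusted p under 0.05 either, and Dnajc4, Dnajc13, Dnajc28, Hsp90b1 and Hspa4l were below 0 at that level. With 75th percentile scaling 5 of the 11 were called (Hsp90ab1, Hspa8, Hspb6, Dnajc5g and Hspb1), and 2 genes (Dnajc4 and Dnajc13) were called below -1.

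More genes of the set were called higher in the polysomal pool than lower, at both times. In p0 - np0, 44 genes were higher and 5 lower in the polysomal pool, against 27.3% and 9.83% of all probes, and in p6 - np6 54 were higher and 4 lower, against 37.3% and 6.42%. The counts became 25 higher and 14 lower at 0 h, and 29 higher and 12 lower at 6 h, with 75th percentile scaling. Members are brighter than most probes, so a second background is that of the 20125 probes tested that were well above background on every array. It was 17.3% up and 1.24% down for M, 28.6% and 6.04% for p6 - p0, 12.4% and 10.5% for np6 - np0, 46.6% and 11.9% for p0 - np0, and 59.1% and 7.45% for p6 - np6. Of the 67 such genes of the set, 9 were called above 1 in M, 25 rose and 3 fell in p6 - p0, 12 rose and 6 fell in np6 - np0, 43 were higher and 5 lower in p0 - np0, and 51 were higher and 4 lower in p6 - np6. With spike-in scaling the counts above 1 thus lay near the background for M and above it for both fraction comparisons.

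The largest M-values of genes detected throughout belonged to the constitutive cytosolic HSP70 and HSP90. Hspa8 encodes Hsc70, the HSP70 that cells make without stress and that also uncoats clathrin vesicles. Its log2 signal was 15.40, 15.37 and 15.25 in np0, 15.48, 15.58 and 15.58 in p0, 14.66, 14.73 and 14.69 in np6, and 17.12, 17.16 and 17.28 in p6. The 3 p6 arrays lay above all others and the 3 np6 arrays below all others. The M-value was 2.29 ± 0.10 (SE, n = 3 arrays per group, adjusted p from limma 1.25e-06), which is 1.80 above the median of all probes, and 2.38, 2.22 and 2.26 on the 3 slides. In the polysomal pool Hspa8 rose by 1.64 ± 0.07, or 3.12-fold. The non-polysomal level was lower at 6 h, with a difference of -0.65 ± 0.07. Since bulk RNA was measured, more mRNA per cell and more cells with the mRNA cannot be told apart here or below.

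Hsp90ab1 encodes HSP90 beta, the constitutive form of HSP90. Its log2 signal was 15.09, 15.18 and 15.02 in np0, 14.89, 15.16 and 14.98 in p0, 13.33, 13.29 and 13.30 in np6, and 15.84, 15.71 and 15.76 in p6. At 0 h the pools overlapped, and at 6 h they were far apart. The M-value was 2.55 ± 0.12 (adjusted p from limma 1.25e-06), 2.06 above the median of all probes. Here the larger part lay in the non-polysomal pool, which fell by 1.79, or 3.46-fold, while the polysomal difference was 0.76 ± 0.08. A second probe of each gene gave an M-value of 2.41 for Hspa8 and of 2.31 for Hsp90ab1. The difference between the pools at 0 h, 0.20 ± 0.07 for Hspa8 and -0.09 ± 0.08 for Hsp90ab1, became -0.68 and -0.98 with 75th percentile scaling, whereas both M-values stayed above 1 (1.86 and 2.13).

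The inducible paralog Hsp90aa1, HSP90 alpha, was spread over the pools in another way. Its log2 signal was 11.77, 11.82 and 11.69 in np0, 14.76, 15.02 and 14.94 in p0, 12.37, 12.33 and 12.35 in np6, and 15.55, 15.41 and 15.61 in p6. Each p array was above each np array at both times. The difference between the pools was 3.15 ± 0.09 at 0 h and 3.18 ± 0.09 at 6 h, and the M-value was 0.03 ± 0.12 (adjusted p from limma 0.868; -0.39 with the 75th percentile and so lower than 0 there). Both pools were higher at 6 h by about the same amount, 0.62 in p and 0.59 in np.

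**Figure D1:**
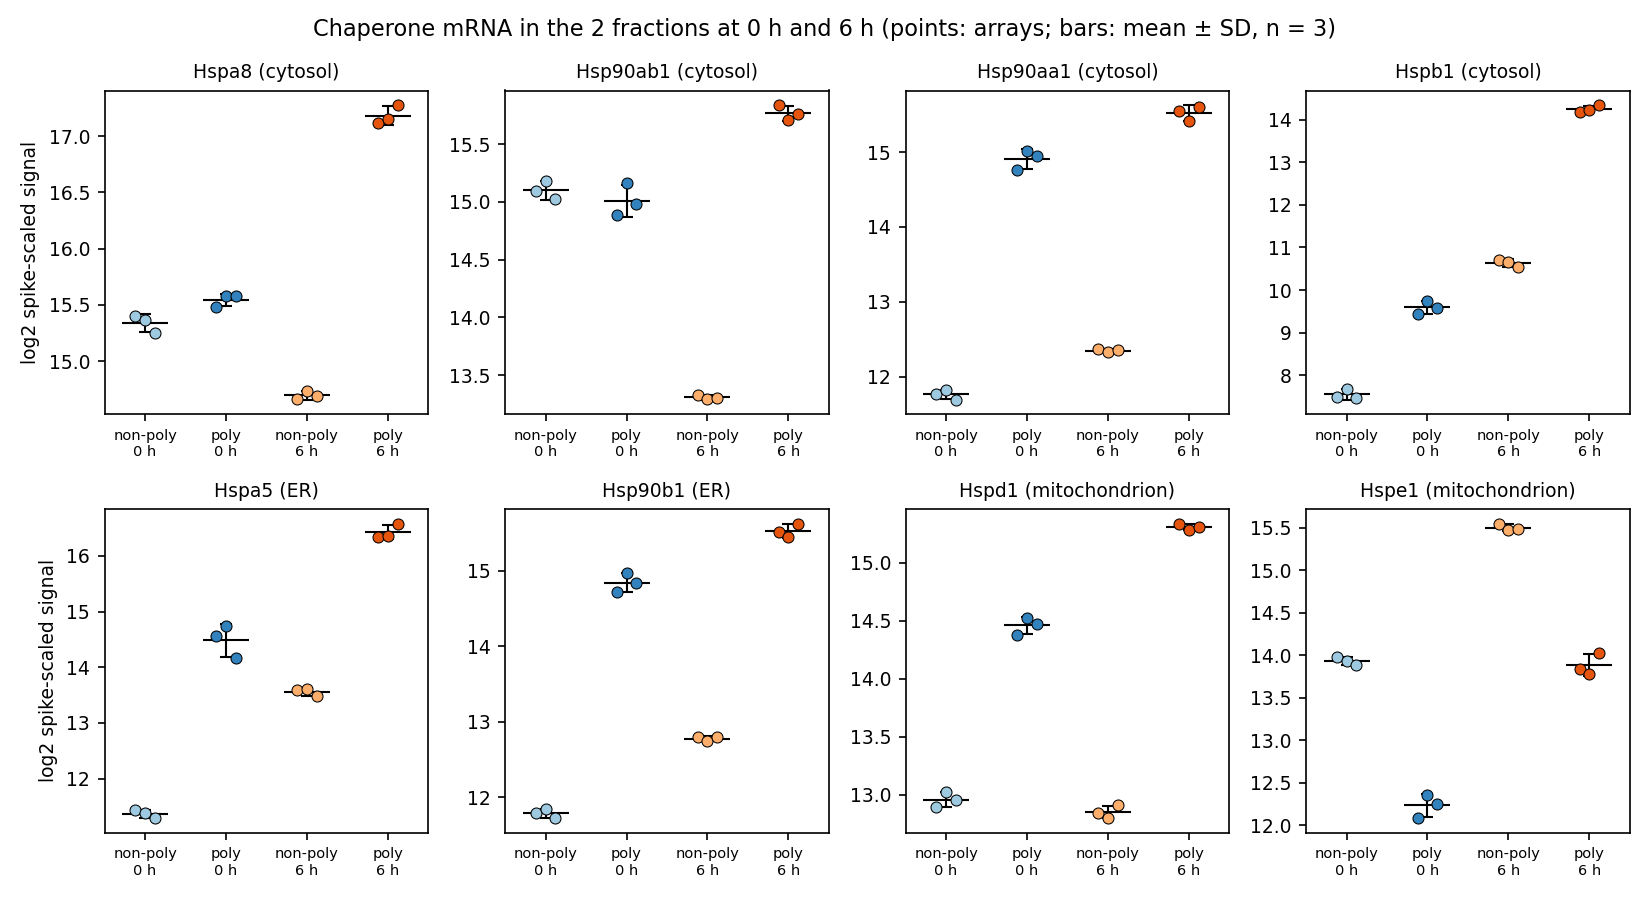
Log2 spike-scaled signal (y axis) of 8 chaperone genes in the 4 groups (x axis), with each array as a point and the mean ± SD of 3 arrays as bars; each panel has its own y range, and levels cannot be set against each other between panels. Hspa8 and Hsp90ab1 have pools that lie close together at 0 h and far apart at 6 h, Hsp90aa1, Hspa5 and Hsp90b1 at both times, and Hspe1 is the gene of the 8 whose non-polysomal signal is the higher one at both times.

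The other HSP70 genes of the cytosol differed from Hspa8. Among the 14 HSP70 and HSP110 genes of all compartments, 2 were called in M (Hspa8 and Hspa4), with a median M of 0.30 (-0.12 with the 75th percentile), and 11 of 14 were higher in the polysomal pool at 0 h. Of all probes, 12.1% were called above 1 in M and 27.3% were higher in p0 - np0. Of probes well above background on every array, 17.3% and 46.6% were so. Hspa4, an HSP110-type exchange factor, had log2 signals of 9.23, 9.28 and 8.93 in np0, 11.44, 11.62 and 11.61 in p0, 9.21, 9.21 and 9.20 in np6, and 13.01, 12.71 and 13.06 in p6. It rose in the polysomal pool alone, by 1.37 ± 0.12 against 0.06 ± 0.12 in the non-polysomal pool. This rise was not called with 75th percentile scaling. Its 3 probes disagreed, with M-values of 1.31, -0.12 and 0.52, so the call rests on 1 probe, and with 75th percentile scaling that probe had 0.89 and was not called.

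Hspa1a and Hspa1b, the near-identical genes of the strictly heat-inducible HSP70, were not called over time. Neither probe of Hspa1a was well above background on any array. Hspa1b was detected, with log2 signals of 4.48, 4.63 and 4.44 in np0, 8.13, 8.24 and 8.10 in p0, 3.71, 3.53 and 3.76 in np6, and 7.68, 7.66 and 7.69 in p6. Its p0 arrays were above its p6 arrays, with a difference of -0.48 ± 0.09 over time in the polysomal pool and -0.85 ± 0.09 in the non-polysomal pool, both short of a call. Its second probe was above background on 2 arrays of p0 only. Because the sequences of the pair are so alike, the signal cannot be assigned to either gene with certainty.

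Hspa2 and Hspa14, further cytosolic HSP70 proteins, were higher in the polysomal pool at 0 h (3.06 and 2.40) and showed no call over time. Hspa4l, a relative of Hspa4, and Hspa12b, a distant HSP70 known from endothelial cells, fell in both pools. Hspa12b had log2 signals of 8.42, 8.30 and 8.30 in np0, 10.70, 11.06 and 10.96 in p0, 6.46, 6.42 and 6.43 in np6, and 8.86, 8.82 and 8.94 in p6. All 6 h arrays of a pool lay below its 0 h arrays. The difference over time was -2.03 ± 0.09 in the polysomal pool and -1.91 ± 0.09 in the non-polysomal pool. For Hspa4l the differences were -1.70 ± 0.07 and -1.46 ± 0.07, and its other 2 probes gave -1.86 and -1.97 in the polysomal pool.

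Hspb1, Hsph1 and Bag3 had the 3 largest rises of the set in the polysomal pool and rose in the non-polysomal pool too, while the inducible Hspa1b and Hsp90aa1 were not called over time. Hspb1 encodes HSP27, a small heat shock protein that holds unfolded proteins without ATP and binds actin filaments. Hspb1 had log2 signals of 7.49, 7.69 and 7.47 in np0, 9.44, 9.75 and 9.59 in p0, 10.71, 10.66 and 10.54 in np6, and 14.19, 14.22 and 14.34 in p6. The groups did not overlap. It had the largest rise of the set in each pool, 4.66 ± 0.10 (25.3-fold, adjusted p from limma 6.61e-10) in p and 3.09 ± 0.10 (8.51-fold) in np, and its M-value was 1.57 ± 0.14.

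Hsph1, the HSP110 exchange factor, had log2 signals of 10.04, 10.03 and 9.99 in np0, 12.11, 12.35 and 12.27 in p0, 12.75, 12.65 and 12.63 in np6, and 15.59, 15.38 and 15.61 in p6. It rose 9.75-fold in the polysomal and 6.31-fold in the non-polysomal pool. Bag3, which joins HSP70 to small heat shock proteins in selective autophagy, had log2 signals of 10.35, 10.46 and 10.22 in np0, 12.44, 12.72 and 12.56 in p0, 12.47, 12.48 and 12.33 in np6, and 15.46, 15.42 and 15.58 in p6. It rose 7.54-fold and 4.24-fold. For both genes each pool at 6 h was clear of the same pool at 0 h, and the M-value was short of a call, 0.63 ± 0.13 for Hsph1 and 0.83 ± 0.14 for Bag3. Another probe, which the study lists as BAG3 and which was kept out of the set, differed. Its non-polysomal difference of 0.46 was short of a call, and its M-value of 2.24 was called.

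The J-proteins Dnajb4 (1.64 in p, 1.55 in np) and Dnaja4 (1.70 and 1.26), partners of cytosolic HSP70, also rose in both pools. Dnajb1, HSP40, the main J-protein of the cytosolic stress response, rose by 1.59 ± 0.09 in the polysomal pool, and its difference of 0.70 ± 0.09 in the non-polysomal pool was short of a call. Dnaja1, which serves Hsc70, had differences of 0.35 ± 0.09 (-0.14 with the 75th percentile) and -0.52 ± 0.09 and was among the most polysomal genes of the set (2.97 at 0 h and 3.84 at 6 h). Hsf1 itself had log2 signals of 10.35, 10.50 and 10.42 in np0, 10.74, 11.11 and 10.92 in p0, 11.08, 11.02 and 11.05 in np6, and 11.89, 11.99 and 12.07 in p6. It rose in the polysomal pool, by 1.06 ± 0.10 (0.57 with 75th percentile scaling, where it is not called), with 0.63 ± 0.10 in the non-polysomal pool. A probe that the study lists as HSF1, kept out of the set, had -0.98 in the non-polysomal pool. Its M-value of 2.06 was called. Neither probe of Hsf2 was well above background on all arrays of any group.

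Of the 78 genes, 62 had at least 1 promoter window in RefSeq (GRCm38.p6), and the 78 windows of these genes were searched over the 250 bases before the start, on both strands. The heat shock element, the site of HSF1, is built of GAA units in alternating direction. In the form with 3 units (GAANNTTCNNGAA or TTCNNGAANNTTC) it was found in 0.466% of all 32851 windows and in windows of Hspd1, Hspe1 and Dnajb6, and in the form with 2 units (GAANNTTC or TTCNNGAA), which every 3-unit match also holds, in 12.8% of all windows and in windows of 14 of these genes. Among the genes that rose in both pools, Hspb1, Hsph1, Dnajb4, Dnaja4 and Hspe1 had such a match and Bag1, Bag2, Bag3, Dnaja3, Dnajb9 and Hspa5 did not, while Dnajc11 had no window. The stretches before Hspb1 and Hsph1 are shown because these genes had the largest rises, with the 2-unit matches in capitals. A match is a description of the sequence and no evidence of binding.

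Hspb1, chr5:135887789-135887918, plus strand: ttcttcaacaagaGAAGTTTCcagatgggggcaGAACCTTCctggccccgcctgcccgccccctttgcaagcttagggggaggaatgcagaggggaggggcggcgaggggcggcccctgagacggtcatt
Hsph1, chr5:149636337-149636416, minus strand: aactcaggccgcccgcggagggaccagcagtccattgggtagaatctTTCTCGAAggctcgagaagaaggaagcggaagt

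Both stretches end 1 base before the start of transcription. The matches begin 117 and 97 bases before the start in Hspb1 and 33 bases before it in Hsph1.

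**Figure D2:**
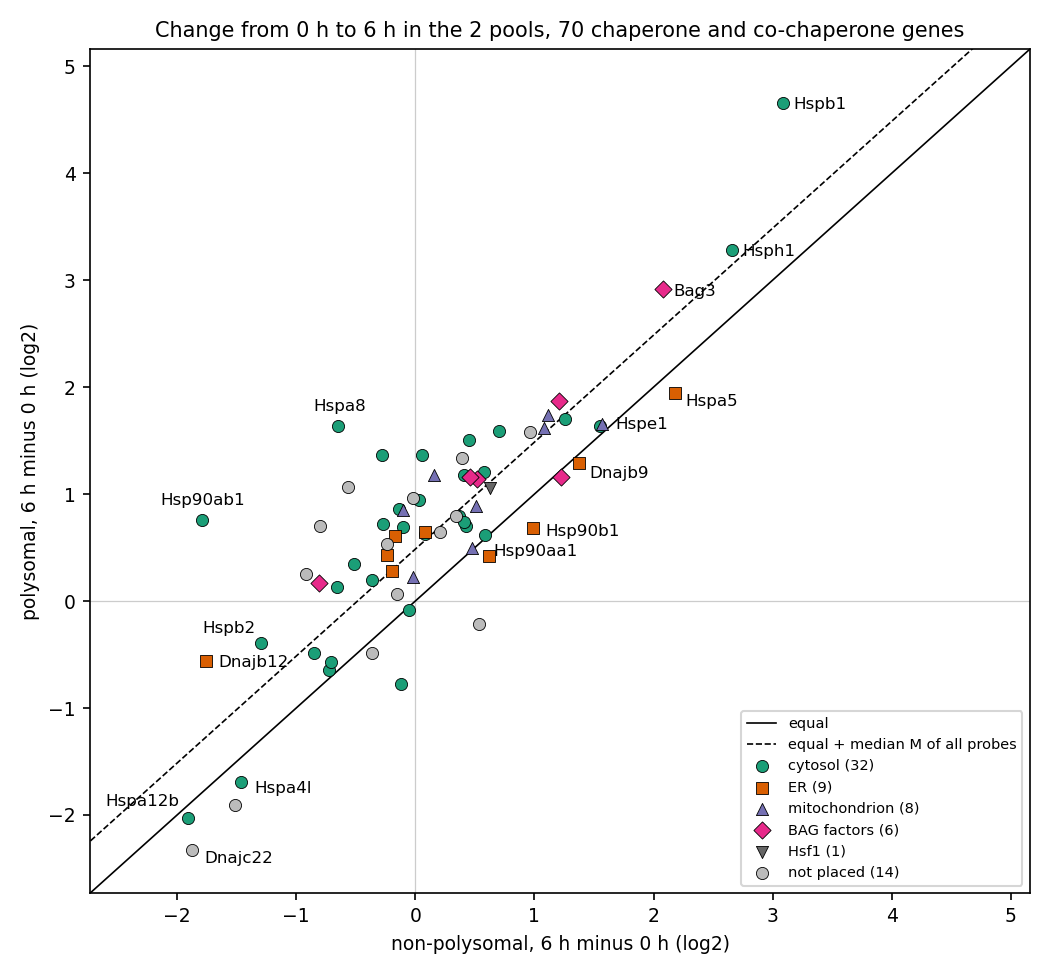
Difference between 6 h and 0 h in the non-polysomal pool (x axis, log2) and in the polysomal pool (y axis, log2) for the 70 genes well above background on every array of at least 1 group; colours and shapes give the compartment, the solid line marks equal differences and the dashed line lies higher by the median M-value of all probes (0.49). Hspb1, Hsph1 and Bag3 lie far up to the right, Hspa8 and Hsp90ab1 far above both lines, and the ER genes Hspa5, Hsp90b1 and Dnajb9 on or below the solid line.

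In the ER, BiP and its J-protein Dnajb9 rose in both pools. The M-values of Hspa5, Hsp90b1, Hspa13 and Dnajb9 were negative, whereas those of the other ER members were positive. Hspa5 encodes BiP, the HSP70 of the ER and a sensor of unfolded protein there. The log2 signal of Hspa5 was 11.43, 11.39 and 11.29 in np0, 14.55, 14.74 and 14.16 in p0, 13.58, 13.60 and 13.48 in np6, and 16.35, 16.36 and 16.58 in p6. The 4 groups did not overlap, and the third p0 array was the lowest of its group. Hspa5 rose 3.85-fold in the polysomal pool (1.94 ± 0.14) and 4.54-fold in the non-polysomal pool (2.18 ± 0.14), with an M-value of -0.24 ± 0.19 (adjusted p from limma 0.336), which is 0.73 below the median of all probes. The M-values on the 3 slides were -0.36, -0.59 and 0.23.

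Hsp90b1, GRP94, the HSP90 of the ER, had log2 signals of 11.80, 11.85 and 11.73 in np0, 14.72, 14.96 and 14.84 in p0, 12.79, 12.74 and 12.80 in np6, and 15.51, 15.44 and 15.62 in p6. Each group was clear of the others, but the differences over time, 0.68 ± 0.08 in p and 0.99 ± 0.08 in np, were short of a call. Hspa13, an ER-associated HSP70, gave 0.42 ± 0.14 (-0.07 with the 75th percentile) and 0.61 ± 0.14. Dnajb9, ERdj4, a J-protein that recruits BiP to the stress sensor IRE1, rose in both pools (1.29 ± 0.11 and 1.37 ± 0.11), though its polysomal difference was 0.81 and not called with 75th percentile scaling.

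These 4 genes had M-values between -0.30 and -0.08, none with an adjusted p from limma below 0.05. With 75th percentile scaling they were -0.66, -0.73, -0.62 and -0.51 for Hspa5, Hsp90b1, Hspa13 and Dnajb9, and all 4 had an adjusted p below 0.05 there, none being below -1. They were polysomal at both times, by 3.11, 3.05, 2.88 and 1.86 at 0 h and by 2.87, 2.75, 2.69 and 1.78 at 6 h in the same order. Dnajb9 has 3 probes, whose M-values of -0.08, 0.40 and 0.31 differ in sign with spike-in scaling.

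The other 5 ER members went another way. The BiP co-chaperones Dnajc3 (P58IPK), Dnajc10 (ERdj5, a reductase) and Dnajc1 had M-values of 0.67, 0.57 and 0.47, with differences in the non-polysomal pool of -0.24, 0.08 and -0.19, none of them past the test. Dnajb12, a J-protein of the ER membrane that helps to degrade misfolded proteins, had log2 signals of 7.15, 7.23 and 7.20 in np0, 8.20, 8.37 and 8.15 in p0, 5.55, 5.40 and 5.36 in np6, and 7.62, 7.74 and 7.69 in p6. It fell by 1.76 in the non-polysomal pool, with -0.56 ± 0.08 in the polysomal pool. Its M-value of 1.20 ± 0.12 was thus called while its signal was lower at 6 h in both pools. Its M-value was 0.78 and not called with 75th percentile scaling, and the polysomal difference was -1.04. Dnajb14, its paralog, had an M-value of 0.77 and no call over time.

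The ER stress element, where ATF6 acts with NF-Y, was searched for as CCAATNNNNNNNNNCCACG or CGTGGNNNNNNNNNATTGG. It was found in 0.113% of all windows and, within the set, in those of Hspa5, Hsp90b1 and Dnajc3. These 3 genes differed in their change over time, by 1.94 and 2.18 in Hspa5, 0.68 and 0.99 in Hsp90b1 and 0.43 (-0.06 with the 75th percentile) and -0.24 in Dnajc3 for the polysomal and the non-polysomal pool. Their stretches are shown for that reason, with the element in capitals, which in Hsp90b1 occurs on both strands, and each ends 1 base before the start.

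Hspa5, chr2:34771970-34772089, plus strand: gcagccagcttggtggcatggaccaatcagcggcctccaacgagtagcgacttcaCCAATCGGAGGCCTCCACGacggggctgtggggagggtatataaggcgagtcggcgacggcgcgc
Dnajc3, chr14:118937812-118937931, plus strand: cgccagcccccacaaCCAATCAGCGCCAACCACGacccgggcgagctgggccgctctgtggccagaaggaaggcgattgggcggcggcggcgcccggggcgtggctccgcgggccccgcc
Hsp90b1, chr10:86705445-86705664, minus strand: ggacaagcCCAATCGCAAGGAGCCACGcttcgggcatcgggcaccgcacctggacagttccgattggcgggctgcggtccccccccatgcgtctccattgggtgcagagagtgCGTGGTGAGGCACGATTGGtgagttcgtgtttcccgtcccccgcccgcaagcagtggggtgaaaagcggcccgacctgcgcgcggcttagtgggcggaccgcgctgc

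Among the mitochondrial chaperones were genes whose signal was higher in the non-polysomal pool. Hspd1 (HSP60) and Hspe1 (HSP10) are the barrel and the lid of the mitochondrial chaperonin, and their genes lie head to head. The start of Hspe1 is 216 bases from 1 annotated start of Hspd1, which faces away from it, while the other start of Hspd1 lies 95 bases inside Hspe1. The 30 bases shown lie between the first pair of starts, and so before both genes, and hold overlapping 3-unit heat shock elements in capitals. They run from 95 to 66 bases before the start of Hspe1.

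Hspe1, chr1:55088053-55088082, plus strand: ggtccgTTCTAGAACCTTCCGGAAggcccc

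The pair differed in both respects measured. Hspe1 had log2 signals of 13.98, 13.93 and 13.88 in np0, 12.09, 12.36 and 12.26 in p0, 15.55, 15.47 and 15.49 in np6, and 13.84, 13.78 and 14.03 in p6. It was lower in the polysomal pool on every slide, by -1.70 ± 0.09 at 0 h and -1.62 ± 0.09 at 6 h, and it rose in both pools, by 1.65 ± 0.09 and 1.57 ± 0.09, with an M-value of 0.08 ± 0.13 (-0.34 with the 75th percentile).

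Hspd1 had log2 signals of 12.90, 13.03 and 12.96 in np0, 14.38, 14.53 and 14.47 in p0, 12.85, 12.81 and 12.91 in np6, and 15.33, 15.28 and 15.31 in p6. It was higher in the polysomal pool, by 1.50 ± 0.07 at 0 h and 2.45 ± 0.07 at 6 h. Its non-polysomal arrays of 0 h and 6 h overlapped (-0.11 ± 0.07, adjusted p from limma 0.284), the polysomal difference over time was 0.85 ± 0.07, and the M-value of 0.96 ± 0.10 was short of a call. A second probe of Hspd1 gave an M-value of 1.58, which was called.

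Hspa9, mortalin, the HSP70 of the matrix, had small differences between the times (0.22 ± 0.08 in p, -0.26 with the 75th percentile, and -0.02 ± 0.08 in np). Its J-protein Dnaja3 rose in both pools (1.74 and 1.11), and so did Dnajc11, a protein of the inner membrane organising system (1.61 and 1.08). Dnajc19, a J-protein of the import motor, had the lowest difference between the pools of the set. Its log2 signal was 13.50, 13.63 and 13.57 in np0, 10.39, 10.72 and 10.63 in p0, 14.00, 14.11 and 14.03 in np6, and 11.00, 11.05 and 11.18 in p6. Both polysomal groups lay far below the non-polysomal ones, by -2.99 ± 0.10 at 0 h and -2.97 ± 0.10 at 6 h, and the M-value was 0.02 ± 0.14 (-0.40 with the 75th percentile). Its relative Dnajc15 was also lower in the polysomal pool (-0.95 and -0.57), short of a call.

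Dnajc30, a small mitochondrial J-protein, was the mitochondrial member called in M. It had log2 signals of 12.04, 12.21 and 12.03 in np0, 11.09, 11.23 and 11.11 in p0, 12.28, 12.19 and 12.29 in np6, and 12.32, 12.30 and 12.35 in p6. The p0 arrays were below the rest, and the other 9 arrays lay within a narrow range. It rose in the polysomal pool by 1.18 ± 0.08, and the M-value was 1.02 ± 0.11 (adjusted p from limma 7.82e-05). With 75th percentile scaling the M-value was 0.60, and neither it nor the polysomal difference was called.

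**Figure D3:**
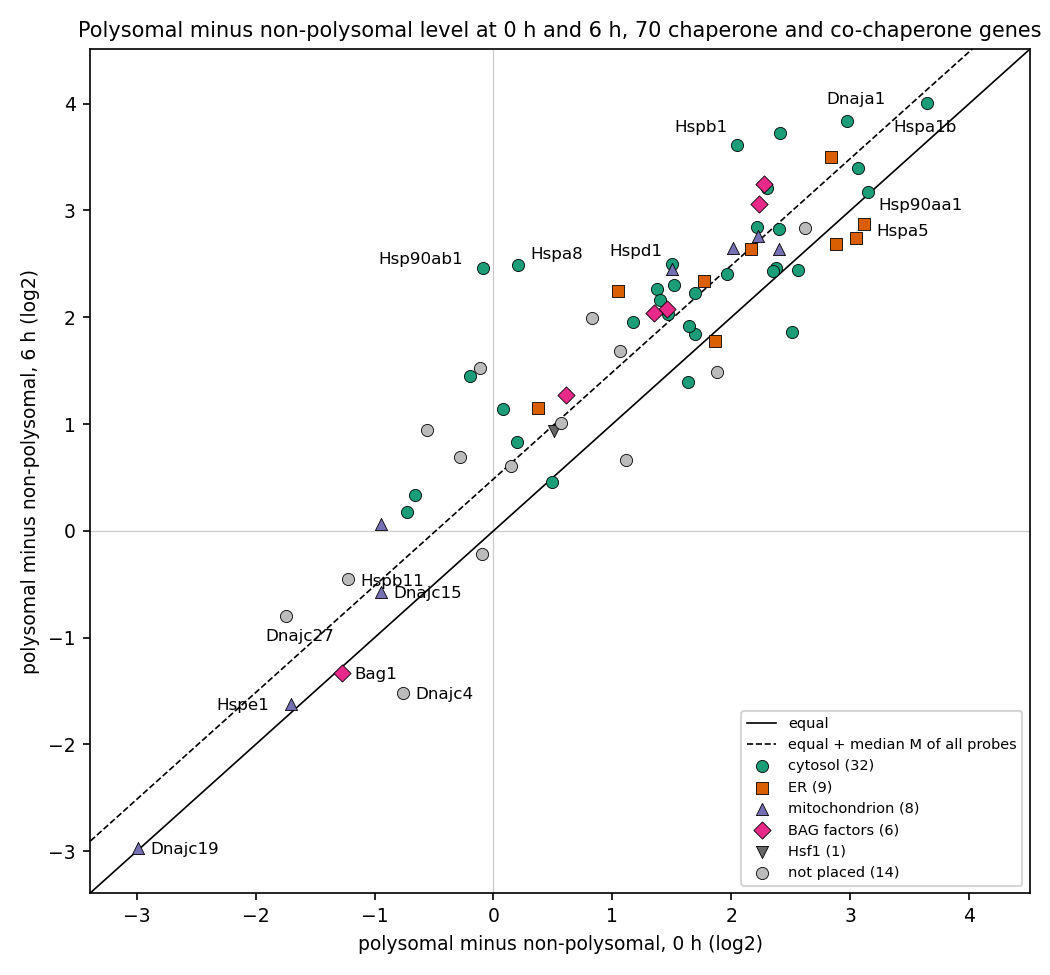
Difference between the polysomal and the non-polysomal pool at 0 h (x axis, log2) and at 6 h (y axis, log2) for the 70 genes well above background on every array of at least 1 group; colours, shapes and lines are as in the plot of differences over time. Hsp90ab1 and Hspa8 lie near 0 at 0 h and near 2.5 at 6 h, Dnajc19, Hspe1 and Bag1 lie on the solid line at the lower left, and 3 of the ER genes lie just below it at the upper right.

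By compartment, the ranges of the M-values overlapped. The 36 cytosolic genes had a median M of 0.60 (from -0.65 to 2.55), the 9 ER genes of 0.47 (from -0.30 to 1.20) and the 8 mitochondrial genes of 0.46 (from 0.02 to 1.02), beside 0.49 for all probes, and these medians became 0.17, 0.05 and 0.03 with 75th percentile scaling. Called above 1 were 6 of 36, 1 of 9 and 1 of 8. Over time, 11 cytosolic genes rose and 2 fell in the polysomal pool, 2 ER genes rose and 0 fell, and 4 mitochondrial genes rose and 0 fell. These counts became 7 up and 5 down, 1 up and 1 down (Dnajb12), and 3 up and 0 down with the 75th percentile. In the non-polysomal pool, 4 rose and 4 fell, 2 rose and 1 fell, and 3 rose and 0 fell. Of all probes, 12.1% were called above 1 in M. The shares of all probes up and down were 19.2% and 5% in p6 - p0, and 8.12% and 8.11% in np6 - np0. Of probes well above background on every array, 17.3% were called above 1 in M. Their shares up and down were 28.6% and 6.04% in p6 - p0, and 12.4% and 10.5% in np6 - np0. No gene of the ER or the mitochondrial list was called lower over time in the polysomal pool by limma with spike-in scaling. Of these genes Dnajb12 alone was lower there at an unadjusted p under 0.05. A further 17 genes, Dnajc4, Dnajc22 and Dnajc28 among them, were placed in no compartment or family. Their M-values ran from -0.75 to 1.64, and 3 rose and 2 fell (Dnajc22 and Dnajc28) in the polysomal pool. The ranges and counts by compartment therefore hold for the listed genes only.

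The medians of the compartments lay further apart in the difference between the pools. At 0 h 24 of 36 cytosolic, 8 of 9 ER and 4 of 8 mitochondrial genes were higher in the polysomal pool, with median differences of 1.57, 2.17 and 0.28. The mitochondrial median was -0.61 with 75th percentile scaling, the other medians 0.69 and 1.28. Lower in the polysomal pool were 0 of 36 cytosolic genes, 0 of 9 ER genes and 2 of 8 mitochondrial genes (Hspe1 and Dnajc19). At an unadjusted p under 0.05 Hspb2, Hspb6 and Hspb7 of the cytosol were lower there too. Scaled to the 75th percentile, 14 cytosolic, 5 ER and 3 mitochondrial genes were higher and 3, 0 and 4 lower at 0 h, Dnajc15 and Dnajc30 being added to the lower mitochondrial genes. At 6 h the counts were 28, 9 and 4 higher, and 0, 0 and 2 lower, and 16, 6 and 4 higher and 3, 0 and 4 lower with the 75th percentile. With spike-in scaling 27.3% of all probes were higher and 9.83% lower at 0 h, and 37.3% and 6.42% at 6 h. Of probes well above background on every array, 46.6% were higher and 11.9% lower at 0 h, and 59.1% and 7.45% at 6 h. The mitochondrial count of 4 of 8 higher at 0 h lay near that share. The lists differ in size and no test between them was made.

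**Figure D4:**
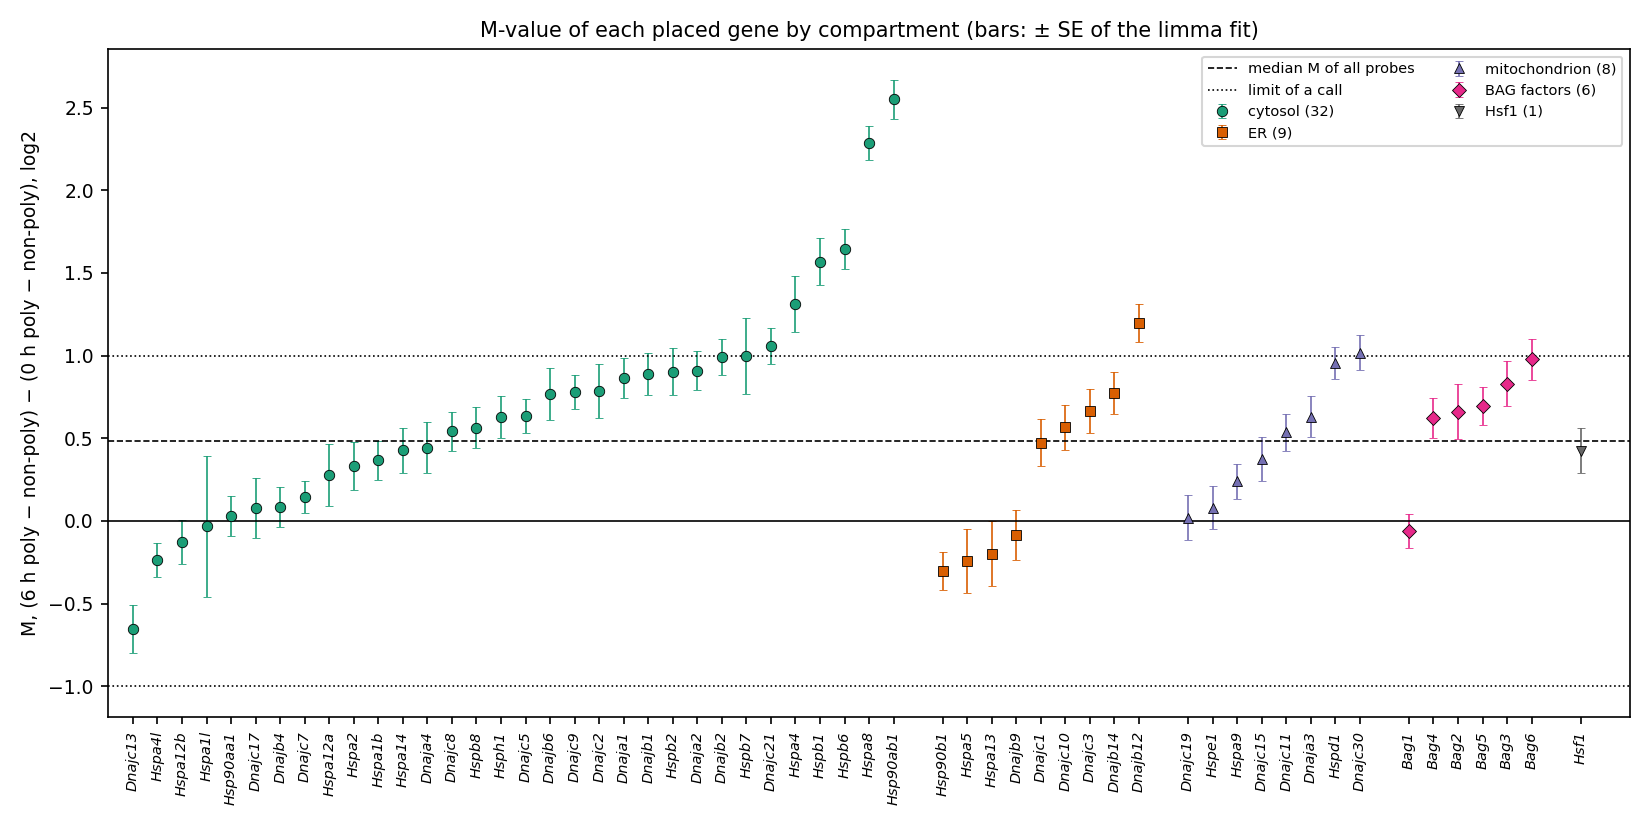
M-value (y axis, log2) of the genes placed in a compartment or family that were well above background on every array of at least 1 group (32 of the 36 of the cytosol), ordered within each; bars are ± SE of the limma fit, the dashed line is the median of all probes (0.49) and the dotted lines are the limits of a call (1 and -1). Hsp90ab1 and Hspa8 lie apart from the rest, and the ranges of the compartments overlap.

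Of the 6 BAG factors, 5 rose in the polysomal pool with spike-in scaling and 2 (Bag2 and Bag3) with the 75th percentile, against 19.2% of all probes with spike-in scaling. In the non-polysomal pool 3 rose with either scaling, against 8.12%, and the median differences were 1.16 and 0.86. Bag1 was the exception in place, with log2 signals of 11.81, 11.86 and 11.81 in np0, 10.45, 10.64 and 10.58 in p0, 13.09, 13.00 and 13.07 in np6, and 11.75, 11.63 and 11.78 in p6. Every polysomal array lay below the non-polysomal array of its slide, by -1.27 ± 0.07 at 0 h and -1.33 ± 0.07 at 6 h. With spike-in scaling Bag1 rose by about the same amount in each pool (1.16 and 1.22). Its M-value was -0.06 and ran from -0.48 to 0.29 over 26 alternative ways of processing. Bag6, which handles membrane proteins that failed to insert, was called over time in neither pool, with 0.17 ± 0.09 in p (-0.31 with the 75th percentile) and -0.81 ± 0.09 in np.

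Among the 8 small heat shock proteins, Hspb1 and Hspb6 were called above 1 in M, against 12.1% of all probes. Hspb6, HSP20, rose in the polysomal pool alone. Its log2 signal was 6.67, 6.84 and 6.76 in np0, 6.57, 6.68 and 6.42 in p0, 6.53, 6.46 and 6.45 in np6, and 7.83, 7.98 and 7.97 in p6, so that the p6 arrays stood above 9 arrays of about the same level. The M-value was 1.65 ± 0.12, and the polysomal rise of 1.37 ± 0.09 was 0.88 and not called with 75th percentile scaling. Hspb2, a muscle-type member, fell by 1.30 in the non-polysomal pool, with -0.39 ± 0.10 in the polysomal pool. Hspb8, the partner of Bag3, had 0.20 ± 0.09 (-0.29 with the 75th percentile) and -0.37 ± 0.09. Hspb11, which is part of the intraflagellar transport complex rather than a chaperone, was lower in the polysomal pool at 0 h (-1.22).

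Of the 28 Dnajc genes, 5 were called above 1 in M, against 12.1% of all probes: Dnajc5g, Dnajc5b, Dnajc12, Dnajc21 and Dnajc30. Dnajc5g and Dnajc5b, relatives of the synaptic vesicle J-protein Dnajc5, lay near background, so that no size can be read from their M-values. Dnajc5b was well above it on all 3 arrays in np0 alone, on 1 p6 array and on no np6 array. Dnajc5g was so on every array of at least 1 group, but on only 1 of the 3 np6 arrays. The second probe of each gene was not called. Dnajc12 had a non-polysomal difference of -0.91 ± 0.12 and an M-value of 1.16 ± 0.17. The lowest M-values past the test were those of Dnajc4 (-0.75 ± 0.13, adjusted p from limma 0.00123) and of the endosomal Dnajc13 (-0.65 ± 0.14, adjusted p 0.00568), neither below -1. Both were called with 75th percentile scaling, at -1.18 and -1.08. Dnajc27, a small GTPase with a J-domain, was lower in the polysomal pool at 0 h (-1.74) and rose there over time (1.34). This rise was not called with 75th percentile scaling. Its 3 probes had M-values of 0.94, 1.10 and 0.26, of which 1 was called.

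Of the Dnajc genes, 2 fell in both pools. Dnajc28 gave -1.91 ± 0.11 in the polysomal pool and -1.51 ± 0.11 in the non-polysomal pool on its brightest probe. Its other 2 probes were well above background on no array at 6 h, and their signal was at least 2.18-fold and at least 3.11-fold higher in p0 than in p6. Dnajc22 was well above background on the 3 np0 and 3 p0 arrays and on no array of np6 or p6. Its signal was at least 3.05-fold higher in p0 than in p6 (measured means 5.26 and 2.94, adjusted p from limma 0.00278) and at least 2.11-fold higher in np0 than in np6 (4.15 and 2.27). A bound takes, for the dim group, the lowest signal among probes well above background on each array.

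Partner proteins of the same machines were described from lists of other genes. Of 14 cytosolic partners, 7 rose and 0 fell in the polysomal pool, 1 rose and 0 fell in the non-polysomal pool, and 4 were called above 1 in M, with a median M of 0.76, against 19.2% of all probes up in p6 - p0, 8.12% in np6 - np0 and 12.1% in M. With 75th percentile scaling 2 rose in the polysomal pool (Fkbp5 and Ppid), 1 was called in M (Cdc37), and the median M was 0.34. The 4 were Cdc37, which brings kinases to HSP90 (1.81 ± 0.13, and 1.39 with the 75th percentile), Ptges3, the HSP90 co-chaperone p23 (1.35 ± 0.13, and 0.93), St13, the HSP70 cofactor Hip (1.31 ± 0.10, and 0.88), and Fkbp5 (1.17 ± 0.16, and 0.75). Fkbp5, an immunophilin of the glucocorticoid receptor complex and a known target of that receptor, had the largest rise, 4.53 ± 0.12 in p and 3.36 ± 0.12 in np. Its close relative Fkbp4 had 0.60 ± 0.07 and -0.36 ± 0.07. Stip1, which passes clients from HSP70 to HSP90, had 0.51 ± 0.09 and 0.52 ± 0.09 and an M-value of -0.01.

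Of 12 ER partners, 7 rose in the polysomal and 4 in the non-polysomal pool, none fell, and 1 was called in M (Canx, calnexin, 1.06 ± 0.12). For these and the mitochondrial partners the shares of all probes were 19.2% up in p6 - p0, 8.12% up in np6 - np0 and 12.1% above 1 in M. Among probes well above background on every array they were 28.6%, 12.4% and 17.3%. Scaled to the 75th percentile, 3 rose in the polysomal pool (Manf, Hyou1 and Sdf2l1), 4 in the non-polysomal pool and 0 were called in M, where Canx had 0.64. The 4 that rose in both pools were Manf, a BiP-binding secreted protein (2.71 and 2.63), Hyou1, the HSP110 of the ER (2.12 and 1.65), Sdf2l1, a BiP cofactor (1.83 and 2.06), and the disulfide isomerase Pdia4 (1.29, or 0.80 with the 75th percentile, and 1.46). The p6 mean of Hyou1 rests on 2 arrays, since its spot on the other was an outlier and left out. Of 8 mitochondrial partners, 2 rose in the polysomal pool, Grpel1 and Grpel2, the exchange factors of Hspa9 (1.23 and 1.02, or 0.75 and 0.54 with the 75th percentile, where neither was called and Hscb fell by 1.30), and none was called in the non-polysomal pool or in M, where the largest differences were those of Hscb (-0.88 in np) and Clpb (-0.84 in np and 0.84 in M). Trap1, the HSP90 of mitochondria, was polysomal at both times (3.29 and 3.18), with an M-value of -0.11 ± 0.12.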

How the data were processed

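Polysomal and non-polysomal RNA of 12 samples was hybridised to one-colour Agilent arrays (45018 spots, 1639 of them controls), and the labels and methods describe 3 biological replicates per group, so that p-values measure the spread between these samples only. The deposited intensities are processed signals per spot from Feature Extraction 10.7.1.1, background-subtracted by the authors' scanner software, and the authors also deposited a table of log2 median pixel intensities plus a constant per array, which served as an alternative. Here outlier spots (94 to 221 per array) were left out, log2 intensities averaged per probe, and each array shifted by the mean deviation of 10 spike-in transcripts (32 spots each). No spot was saturated, and 55.6% to 60.7% of probes were well above background per array; the number of arrays limits the precision. The 4 groups were fitted with limma 3.58.1 in R 4.3.3 over all 41174 probes, with adjustment after Benjamini-Hochberg over all probes, as fixed contrasts without a replicate block. On simulated data with 200 changed probes, 77% of changes of 2 and 85% of changes of 3 on the log2 scale were called. Among the changed probes well above background on every array, 92.6% and 100% were called. Probes were named through RefSeq by accession (18754 of 32839 accessions matched). Members and lists were chosen with earlier results of these data known. Named genes were a list of main chaperones, the extremes of each comparison among the rest, and genes whose probes disagreed. Hspa4l, Hspa14, Hspb2, Hspb3, Hspb7, Dnajb6, Dnajb14, Dnajc1 and Dnajc21 were named after their values were seen. Promoter windows were searched with Python 3.11.15. Alternatives numbered 26.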

Additional observations from a re-analysis of the deposited data

Results flagged for a closer look

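In 11 of the 78 genes of the set the change over time differed between the pools, by the interaction term of the limma fit (the M-value) at an adjusted p below 0.05 and a size above 1. Of all tested probes, 12.1% were called above 1 in M. Of the 67 genes well above background on every array 9 were called, against 17.3% of such probes, so the counts lay near the background. With 75th percentile scaling 5 genes of the set were called above 1. The difference between the polysomal and the non-polysomal change was 2.55 for Hsp90ab1, 2.29 for Hspa8, 1.65 for Hspb6, 1.64 for Dnajc5g, 1.57 for Hspb1, 1.50 for Dnajc5b, 1.31 for Hspa4, 1.20 for Dnajb12, 1.16 for Dnajc12, 1.06 for Dnajc21 and 1.02 for Dnajc30. The adjusted p was highest for Dnajc5b (0.0199) and Dnajc5g (0.00427), whose signals lay near background in most groups, so that no size can be read from these values, and the call of Hspa4 was made by 1 of its 3 probes. The lower spike-in signal of the p6 arrays moves with all 11 values, and its part in them was not tested.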

How the results depend on the processing

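Groups of 3 arrays and the low spike-in signal of the p6 arrays limit these results, and why values moved was not tested. Below, counts are genes called higher and lower, and single values are M-values whose sign turned.

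With 75th percentile scaling the counts were 5 and 2 for M, 14 and 8 for p6 - p0, 25 and 14 for p0 - np0 and 29 and 12 for p6 - np6, the median M-values 0.17 (cytosol), 0.052 (ER) and 0.034 (mitochondrion), and the turned values Dnajb4 -0.34, Dnajc15 -0.047, Dnajc16 -0.21, Dnajc19 -0.40, Hsp90aa1 -0.39, Hspa1a -0.089, Hspa1b -0.056, Hspa2 -0.089, Hspa9 -0.18 and Hspe1 -0.34. With quantile normalization the counts were 6 and 4 for M, 8 and 7 for p6 - p0, 11 lower in p0 - np0 and 32 and 10 for p6 - np6, the medians -0.00121, -0.23 and -0.038, and the turned values Dnaja3 -0.0094, Dnaja4 -0.15, Dnajb4 -0.58, Dnajc10 -0.084, Dnajc11 -0.027, Dnajc15 -0.049, Dnajc16 -0.23, Dnajc19 -0.23, Hsf1 -0.11, Hsp90aa1 -0.95, Hspa1a -0.23, Hspa1b -0.016, Hspa2 -0.23, Hspa9 -0.69 and Hspe1 -0.32. Scaling by a line fitted to the spike-ins, 40 genes were called higher in M and 44 in p6 - p0, the medians were 1.03, 0.81 and 0.81, and Bag1 0.29, Dnajb9 0.39, Dnajc22 0.64, Dnajc28 0.48, Hsf2 0.97, Hspa12b 0.49 and Hspa13 0.11 turned.

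The deposited log2 values gave 7 higher in M and 4 lower in np6 - np0, with Hsf2 0.52 and Hspa1b -0.084. Normexp on all spots, whose fitted background mean was below -100 on 3 arrays, gave 2 higher in M, 0 lower in p6 - p0, 7 and 1 in np6 - np0 and 27 higher in p0 - np0, a cytosolic median of 1.52, and Dnajb9 0.57, Dnajc13 0.70, Dnajc22 3.11, Dnajc28 1.89, Hsf2 3.66, Hsp90aa1 -0.084, Hspa12b 0.48 and Hspe1 -0.23. Normexp that left out unevenly lit spots in its fit, an alternative chosen after seeing the data, gave 5 higher in M, 3 lower in np6 - np0, an ER median of 0.37, and Dnajc19 -0.00693, Dnajc22 0.11, Hsf2 0.50, Hspa1b -0.11 and Hspe1 -0.036. The mean of a gene's probes gave Dnajb9 0.21 and Hspa1b -0.34.

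Leaving out 1 array or slide kept the counts within 10 to 14 (M, higher), 25 to 28 and 3 to 4 (p6 - p0), 12 to 14 and 7 (np6 - np0), 42 to 45 and 5 to 6 (p0 - np0) and 52 to 55 and 4 (p6 - np6), and the mitochondrial median M within 0.40 to 0.50. The M-values of Dnajb9 (-0.29 to 0.021), Dnajc19 (-0.073 to 0.10), Hsf2 (-0.70 to 0.30), Hsp90aa1 (-0.056 to 0.10) and Hspa1a (-0.38 to 1.42) turned. Same-numbered arrays shared a slide, and the correlations of their deviations were -0.097 to 0.424 over 18 pairs, with a median of 0.068. Over 36 pairs of unlike number they were -0.379 to 0.208, with a median of -0.038. The ranges overlapped, and the numbers were not taken as pairing the samples. A part shared by the arrays of a slide was not tested. With the replicate block 45 genes in place of 44 were called higher in p0 - np0 and no other count changed. Over the single M-values and alternatives, 1014 stayed on their side of the threshold, 123 lost it, 44 passed it and 65 turned. The M-values of Hsp90ab1 and Hspa8 stayed above 1 in every leave-one-out fit (2.47 to 2.63 and 2.24 to 2.33).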

Other observations

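A pair of probes had no match in RefSeq here and was named through the study's own gene list, so they were kept out of the set. With spike-in scaling both were called in M and in the polysomal pool, and neither in the non-polysomal pool. The probe listed as BAG3 (AJ250687) had an M-value of 2.24, a difference over time of 2.70 in the polysomal pool and of 0.46 in the non-polysomal pool, beside an M-value of 0.83 for the Bag3 probe matched by accession. The probe listed as HSF1 (Z49206) had an M-value of 2.06, with 1.07 in the polysomal and -0.98 in the non-polysomal pool, beside 0.43 for the matched Hsf1 probe.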
